A study of Homo sapiens with 6 samples.

Results

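The genes described here are 10 long noncoding RNAs (lncRNAs) that have been studied in the growth or drug resistance of liver cancer, namely MALAT1, NEAT1, H19, HULC, PVT1, TUG1, DANCR, CYTOR, NORAD and UCA1. They were taken by name from the 38637 genes of the deposited expression table, and all 10 are listed there as lncRNAs, among 14953 lncRNA genes in all. The cells were HCCLM3-SR, a human hepatocellular carcinoma (HCC) line made resistant to the multikinase inhibitor sorafenib by culture in rising drug concentrations. The control group was 3 libraries from HCCLM3-SR cells given control siRNA, and the cDCBLD2 knockdown group was 3 libraries from the same line given siRNA against cDCBLD2, a circular RNA made from exons of the DCBLD2 gene. All 6 libraries came from transfected cells kept in 5 µM sorafenib, with the siRNA in place for 3 days, so neither the parental line nor untreated cells enter the comparison. The comparison asks how the RNA of resistant cells under the drug changes when cDCBLD2 is reduced. The labels do not say whether the replicates were separate cultures, so p-values here measure the spread between these libraries, which may be technical.

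An lncRNA acts without being translated, either where it is made, by recruiting or displacing chromatin proteins and splicing factors, or in the cytoplasm, where it can bind proteins or microRNAs and alter mRNA stability. MALAT1 and NEAT1 stay in the nucleus, in nuclear speckles and as the scaffold of paraspeckles. H19 is an imprinted fetal transcript that is high in fetal liver, is silenced after birth and often returns in liver tumours, and its first exon is the source of the microRNA miR-675. HULC was named for being highly upregulated in liver cancer, and UCA1 was first described in urothelial carcinoma.

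Short sequences are shown for the RNAs whose known partners read a short motif. The microRNA that the study ties to cDCBLD2 is miR-345-5p, and the 2 arms of miR-675 lie inside exon 1 of H19. The mature sequences are from RefSeq (GRCh38.p14), and the capitals mark the seed, bases 2 to 8, which pairs with targets. The 5p arm of miR-345 is at chr14:100307876-100307897 on the plus strand. The miR-675 arms are at chr11:1996800-1996822 (5p) and chr11:1996768-1996787 (3p), on the minus strand.
hsa-miR-345-5p: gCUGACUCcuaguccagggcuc
hsa-miR-675-5p: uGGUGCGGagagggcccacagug
hsa-miR-675-3p: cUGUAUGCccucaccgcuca

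The complement of the miR-345-5p seed, the letters GAGTCAG on the RNA strand, was searched for in the longest GENCODE 29 transcript of each lncRNA. There was 1 match in each of NEAT1, TUG1, CYTOR and UCA1, and 0 in MALAT1, H19, PVT1, DANCR and NORAD. Such a match is common. Among lncRNA genes with transcripts between 0.5 and 2 times as long, 74.2% held at least 1 for the length of NEAT1, 37.2% for TUG1 and for CYTOR, and 18.1% for UCA1. The transcript searched can differ from the one behind the deposited levels. CYTOR was searched over 7512 bases, where its levels correspond to 1228, and DANCR over 904, where its levels correspond to 1775. The matches are shown in DNA letters with 8 bases on each side, less where the transcript ends, and the capitals mark the match. They describe letters only, and binding was not measured in these data.
NEAT1, chr11:65423159-65423181, plus strand, GRCh38: gggtggagGAGTCAGgaggaata
TUG1, chr22:30969322-30969344, plus strand, GRCh38: tcgccgggGAGTCAGgcccctaa
CYTOR, chr2:87455401-87455423, plus strand, GRCh38: gtggctatGAGTCAGcatgagtc
UCA1, chr19:15836307-15836326, plus strand, GRCh38: tcctaaaaGAGTCAGccact

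NORAD is known for repeats that bind Pumilio proteins, which shorten the life of the mRNAs they hold. The Pumilio motif TGTANATA, read on the RNA strand, occurred 15 times in the NORAD transcript of 5339 bases, or 2.81 times per kb. Among the 1503 lncRNA genes with transcripts between 0.5 and 2 times as long, 30.9% held at least 1 match, the median was 0, and 2 held as many as NORAD. NEAT1 held 6 matches in 22743 bases and TUG1 held 2 in 7469 bases, and none was in the other 6 lncRNAs searched. Of the 15 in NORAD, the first 3 along the transcript are printed, with the motif in capitals and 8 bases on each side.
NORAD, chr20:36050185-36050208, minus strand, GRCh38: aaggcctgTGTATATAatatgaaa
NORAD, chr20:36049806-36049829, minus strand, GRCh38: cactactgTGTATATAgttgacaa
NORAD, chr20:36049705-36049728, minus strand, GRCh38: tcacatttTGTAAATAcctttttg

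**Figure D1:**
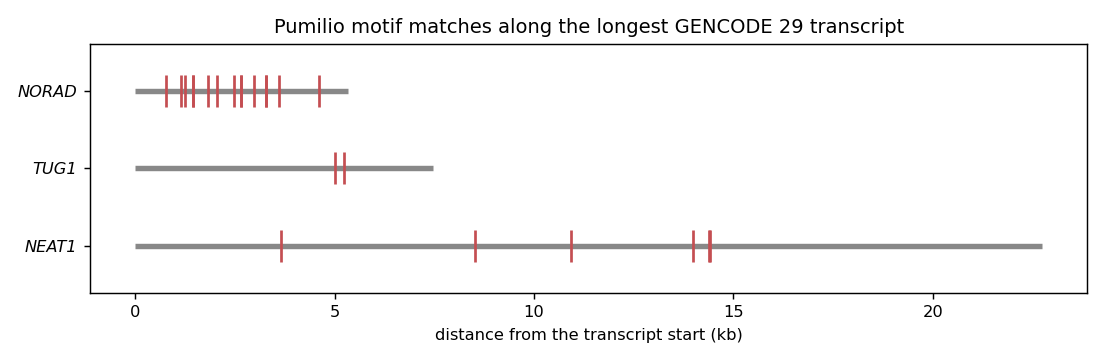
Each grey bar is the longest GENCODE 29 transcript of an lncRNA, drawn to scale from its start in kb, and each red tick is a match to the Pumilio motif. The 15 matches of NORAD start between bases 761 and 4599, whereas NEAT1 has 6 and TUG1 has 2.

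The deposited values are in TPM, which divide a gene's reads by its length and scale each library to a sum of 1000000. TPM totals carry no depth, but whole reads could be recovered from the ratios between libraries, and gave 17492673 to 23064302 reads per library as a lower bound. The epithelial and hepatocyte marker lists had 4 of 5 and 4 of 10 genes at a mean of at least 1 TPM. Keratins KRT8 and KRT18 were abundant in every library (at least 1800 TPM), whereas KRT19 and EPCAM were at most 1.91 and 0.323 TPM. The liver factor HNF4A was at 22.9 to 31.3 TPM. APOB, SERPINA1 and AFP were at most 4.26, 3.0 and 2.08 TPM, and albumin (ALB), transferrin (TF) and fibrinogen (FGB) at most 1.58 TPM. The fibroblast, leukocyte and endothelial marker lists had 3 of 6, 1 of 4 and 1 of 3 genes at a mean of at least 1 TPM. These were VIM (22.7 to 28.5 TPM), LUM (26.7 to 59.1), COL1A1 (1.13 to 11.2), CD68 (90.0 to 125) and PECAM1 (3.63 to 5.64). The T cell marker CD3E was at 0 in all 6 libraries. DCBLD2, the host gene, was at 58.1, 25.9 and 31.6 TPM after knockdown and 71.5, 48.5 and 50.7 TPM in the controls. In the fits described below its log2 fold change was -0.61 (limma adjusted p = 0.253 without and 0.0139 with the replicate block). It was -0.95 (limma adjusted p = 0.0222, no block) without knockdown replicate 1. With the trend in GC content removed and the block it was -0.27 (limma adjusted p = 0.0608). A value per gene does not separate the circular RNA from the mRNA. The libraries were sequenced as polyadenylated RNA, and the part of a circular RNA, which has no tail, in this value was not tested. The study itself saw no obvious and consistent change of DCBLD2 mRNA or protein in its resistant lines after cDCBLD2 knockdown.

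Knockdown replicate 1 stood furthest apart from the other libraries in RNAs that carry no poly(A) tail, such as ribosomal RNA, RN7SK and RMRP. The summed level of 15 such RNAs was 9520 TPM in that library, against 1710 and 1300 TPM in knockdown replicates 2 and 3 and 1030 to 1240 TPM in the controls. All 15 were highest there. The sums of all 3 knockdown libraries lay above every control sum. In knockdown replicate 2, RMRP, RPPH1 and RN7SK were at 76.0, 47.9 and 128 TPM, against at most 10.2, 2.56 and 50.4 TPM in the controls. Of the 15, RN7SL3, RNA18SN1, RNA28SN3 and RNA45SN3 did not lie above every control in that library. Knockdown replicate 1 also stood apart in 6 fibroblast and mesenchymal markers, with 5 of 6 highest there. They summed to 102 TPM in it and to 54.6 to 65.8 TPM in the other 5 libraries. COL1A1 was at 11.2 TPM against at most 3.64 TPM elsewhere, COL1A2 at 2.67 TPM against 0, and LUM at 59.1 TPM against at most 39.6 TPM. The part of these RNAs in the results was not tested. Values without knockdown replicate 1 are given below, and they still include knockdown replicate 2.

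By mean level over the 6 libraries, the order was H19, PVT1, MALAT1, DANCR, NORAD, CYTOR, NEAT1, TUG1, UCA1 and HULC. H19 had a mean of 337 TPM ± 282 (SD, n = 6), followed by PVT1 at 84.5 ± 8.94, MALAT1 at 78.6 ± 31.9, DANCR at 62.2 ± 7.32 and NORAD at 52.4 ± 7.24. The ranges of these 5 neighbours overlapped at each step, so their order is not fixed by the data. CYTOR had 31.4 TPM ± 5.25, below NORAD with no overlap of the libraries. NEAT1 (18.2 ± 4.48) and TUG1 (17.3 ± 5.83) again overlapped, and both lay above UCA1 with no overlap. The level of NEAT1 is an average over its length. The reads per TPM correspond to a gene of 22619 bases, which is near the length of the long paraspeckle-forming isoform. Reads of the long and the short isoform are not told apart, so neither is measured by itself, and the share of each is not known. Of the 14953 lncRNA genes in the table, H19 was the 4th highest by mean level, PVT1 the 29th, MALAT1 the 32nd and TUG1 the 166th.

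**Figure D2:**
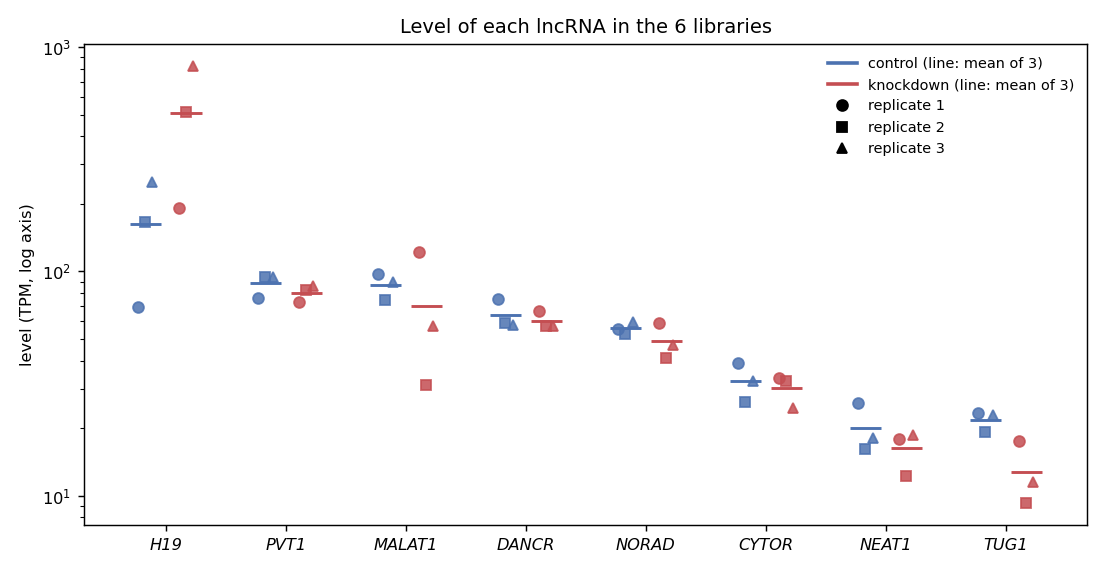
Level in TPM (log axis) of the 8 detected lncRNAs in each library, with controls in blue, cDCBLD2 knockdown in red, a marker shape for each replicate number and a line at the mean of 3. H19 spans 69.5 to 826 TPM and its replicates keep the same order in both groups, while the 3 knockdown libraries of TUG1 lie below the 3 controls.

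HULC and UCA1 were not detected at a usable level. HULC was at 0 in all 6 libraries, which allows a true count of up to 3 reads among the 17492673 of the shallowest library, for counting error only. UCA1 was at 0.0987 TPM in knockdown replicate 3, from as few as 1 read, and at 0 in the other 5 libraries. No comparison was possible for either gene at this depth.

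Across the whole table, the test was limma's moderated test on log2(TPM + 1), over 13980 genes that averaged 1 TPM or more, with Benjamini-Hochberg adjustment. On this scale the changes of low genes are understated. Of the 8 lncRNAs tested, 0 were higher and 0 were lower at an adjusted p under 0.05, where 0.25% of all genes tested were called higher and 0.629% lower. At an unadjusted p under 0.05 there were 2 of 8, H19 and TUG1, against 26.1% of all genes. Limma-voom on the recovered reads, chosen after seeing the data, also called 0 of the 8, where it called 1.29% of 15018 genes higher and 1.72% lower.

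Libraries with the same replicate number varied together, and a second fit used the number as a block. Values from this fit are called blocked below, and those from the fit without it unblocked. With the replicate block, 1 of 8 was higher, H19, where 9.94% of all genes tested were called higher. The block also called 1 of 8 lower, TUG1, where 25.0% of all genes were called lower. Limma-voom with the block likewise gave 1 higher and 1 lower, where 17.5% and 20.5% of its genes were called. The median log2 fold change of the 8 was -0.17, beside -0.08 for all genes and -0.06 for the 1530 lncRNA genes tested. In all 3 same-numbered pairs, 3 lncRNAs were lower (TUG1, PVT1 and DANCR) and 1 was higher (H19), where 43.7% and 22.0% of all genes tested were. These shares of the 8 lie near or below those of all genes, and are no result about the lncRNAs as a group.

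**Figure D3:**
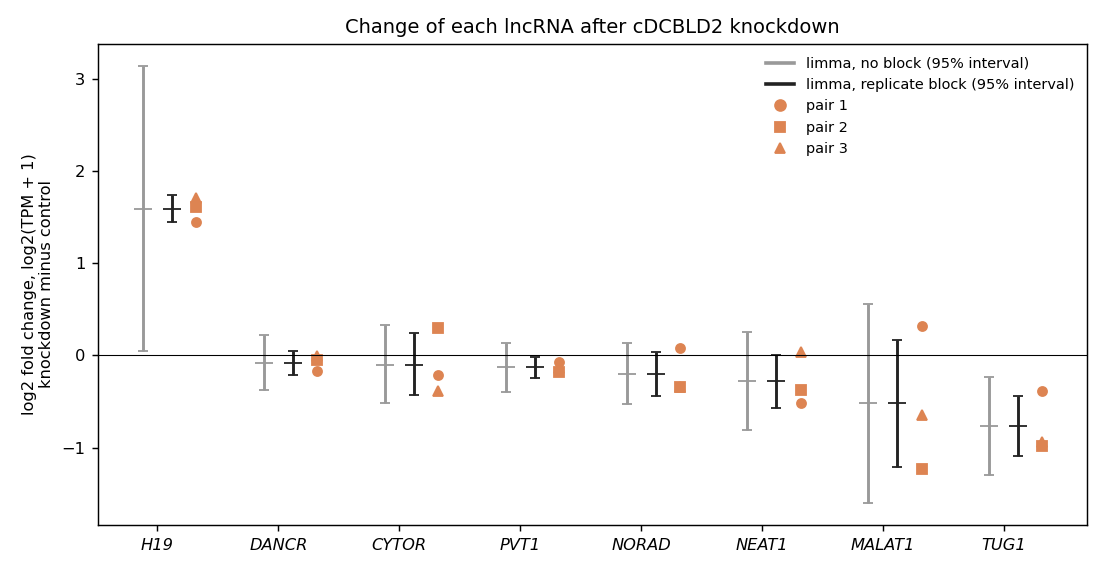
Log2 fold change on log2(TPM + 1), knockdown minus control, of the 8 lncRNAs tested, with 95% intervals from limma without (grey) and with (black) the replicate block, and the change in each same-numbered pair (orange). H19 lies between 1.45 and 1.71 in the 3 pairs and TUG1 between -0.98 and -0.38, while MALAT1 has 1 pair above 0 and 2 below.

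H19 was higher after cDCBLD2 knockdown within every pair, on top of a replicate difference as large as the change itself. It lies on chromosome 11 (chr11:1995176-2001470, minus strand, GRCh38), beside the growth factor gene IGF2 with which it shares imprinting control. After knockdown it had 192, 514 and 826 TPM in replicates 1, 2 and 3, and the same-numbered controls had 69.5, 167 and 251 TPM, from 1218 to 18768 reads. The groups overlapped, because knockdown replicate 1 lay below control replicate 3, and 2 of the 3 knockdown libraries lay above every control. Replicate 1 was lowest and replicate 3 highest in both groups, a 4.29-fold range within the knockdown group and 3.61-fold within the controls.

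In bulk RNA, fewer cells carrying a transcript and less of it per cell cannot be told apart, and this holds for each value here. Within pairs, H19 was 2.77-fold, 3.07-fold and 3.29-fold higher after knockdown. Mean H19 was 511 TPM ± 317 (SD, n = 3) with and 163 ± 90.7 (SD, n = 3) without knockdown, a 3.14-fold difference (exact permutation test, two-sided, p = 0.2, where groups of 3 cannot give less than 0.1). The log2 fold change was 1.59 (95% interval 0.05 to 3.14, limma adjusted p = 0.181), the 26th highest of all genes tested and the 2nd highest of the tested lncRNAs. With the replicate block it was 1.59 with an interval of 1.45 to 1.74 and a limma adjusted p of 0.00127. The rise in that fit was the 5th highest of all genes tested when ranked by the log2 fold change over its standard error.

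H19 kept its direction without the library that stood apart in RNAs without a tail. Without knockdown replicate 1 limma gave a log2 fold change of 2.18 (adjusted p = 0.0355), and without both libraries numbered 1 the blocked fit gave 1.66 (limma adjusted p = 0.00168). H19 is GC-rich, with a median of 62.7% over its transcripts, and over 12688 genes the log2 fold change rose with GC content (Spearman's rho 0.642, across genes, which are not independent). Once the GC trend of every library had been taken out, it was 1.48 (limma adjusted p = 0.212 unblocked and 0.000262 blocked).

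Of the genes around H19, IGF2 and MRPL23 had smaller log2 fold changes. IGF2 was at 2.90, 3.26 and 4.09 TPM after knockdown and 2.74, 2.96 and 2.98 TPM in the controls, with overlapping groups and a log2 fold change of 0.17 (limma adjusted p = 0.460 unblocked and 0.288 blocked). LINC01219, the nearest lncRNA gene on the other side, had 0.18 (interval -1.03 to 1.39, limma adjusted p = 0.843, unblocked). It was at 0 to 2.77 TPM, from 0 to 16 reads, which is too few to say whether it changed less than H19. MRPL23, which encodes a mitochondrial ribosomal protein and lies further on in the same region, had -0.16 (limma adjusted p = 0.316). MIR675, the microRNA gene within H19, was listed at 0 in all 6 libraries. Libraries of this kind do not hold mature microRNAs, so the listing says nothing of the 2 arms printed above.

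TUG1 was lower in every knockdown library than in every control, by 1.70-fold in the means. It is a conserved, widely expressed RNA first found as upregulated by taurine in retina, and it lies at chr22:30969245-30979395 on the plus strand of GRCh38, next to MORC2. It was at 17.6, 9.27 and 11.5 TPM after knockdown and at 23.3, 19.2 and 23.0 TPM in the controls, from 670 to 1414 reads. The highest knockdown library, replicate 1, lay just below the lowest control, replicate 2, and TUG1 was the only one of the 8 tested lncRNAs whose groups did not overlap. Among all genes tested, 22.3% were below the controls in this way and 9.58% above them.

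Mean TUG1 was 12.8 TPM ± 4.33 (SD, n = 3) with and 21.8 ± 2.29 (SD, n = 3) without knockdown (exact permutation test, two-sided, p = 0.1, the lowest value that groups of 3 can give). The knockdown library was at 75.8%, 48.3% and 50.0% of the control in pairs 1, 2 and 3. Pair 1 thus had the smallest difference. The log2 fold change was -0.77 (95% interval -1.30 to -0.23, limma adjusted p = 0.105 unblocked and 0.0116 blocked). Without knockdown replicate 1 limma gave -1.005 (adjusted p = 0.0137), and without pair 1 the blocked fit gave -0.96 (limma adjusted p = 0.00242).

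TUG1 is AT-rich, with a median GC content of 41.8%, so it lies on the side of the GC trend where genes were lower after knockdown. With that trend removed, its log2 fold change was -0.40 (limma adjusted p = 0.148 unblocked and 0.0287 blocked). The neighbours MORC2 and SMTN had log2 fold changes of -0.03 and 0.02 (limma adjusted p = 0.822 and 0.907). MORC2, a chromatin regulator, starts 947 bases away and is read in the opposite direction.

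MALAT1 differed between the groups by less than the spread of the knockdown libraries. It is a nuclear RNA at chr11:65497688-65506516 (plus strand, GRCh38) that is enriched in speckles with splicing factors, and its 3′ end is a triple helix in place of a conventional poly(A) tail. It was at 122, 31.2 and 56.9 TPM after knockdown and at 97.6, 74.5 and 89.7 TPM in the controls. The groups overlapped, with knockdown replicate 1 above every control and knockdown replicates 2 and 3 below every control. Within the knockdown group the highest library was 3.91-fold above the lowest, against 1.31-fold in the controls.

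Mean MALAT1 was 70.0 TPM ± 46.7 (SD, n = 3) with and 87.3 ± 11.7 (SD, n = 3) without knockdown (exact permutation test, two-sided, p = 0.6). The log2 fold change was -0.52 (95% interval -1.60 to 0.56, limma adjusted p = 0.492 unblocked and 0.195 blocked). By pair, knockdown libraries were at 125%, 41.8% and 63.4% of the control. The library with the highest MALAT1 level is the same one in which the 15 RNAs without a tail summed to 9520 TPM, and the part of these RNAs in the MALAT1 value was not tested. Without that library limma gave -1.02 (adjusted p = 0.0368), and without pair 1 the blocked fit gave -0.94 (limma adjusted p = 0.00878). After removal of the GC trend, with all 6 libraries, it was -0.09 (limma adjusted p = 0.891 unblocked and 0.780 blocked).

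**Figure D4:**
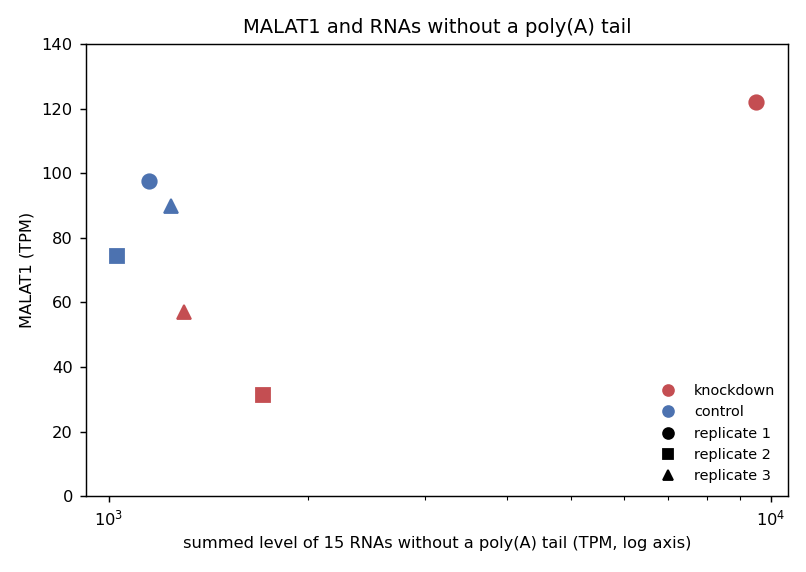
MALAT1 level in TPM against the summed level of 15 RNAs without a poly(A) tail (TPM, log axis), 1 point per library, with controls in blue, cDCBLD2 knockdown in red and a shape for each replicate number. Knockdown replicate 1 lies apart at 9520 TPM with the highest MALAT1 level, 122 TPM, and the other 2 knockdown libraries lie below the 3 controls in MALAT1.

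The table also lists TALAM1, an RNA transcribed antisense to MALAT1. Its recovered reads were 91.9% to 94.2% of those of MALAT1 in the 6 libraries, and its level was 124, 31.1 and 56.7 TPM after knockdown and 98.8, 74.0 and 91.3 TPM in the controls. The library kit does not mark strand and the counting setting is not given in the sources used here, so reads from MALAT1 and TALAM1 cannot be told apart. CYTOR and LINC01943, and UCA1 and LINC01764, overlap in the same manner, but LINC01943 was at most at 0.354 TPM and LINC01764 was at 0 in all 6 libraries.

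NORAD, a cytoplasmic RNA that responds to DNA damage and helps to keep the chromosome number stable, was lower after knockdown in 2 of 3 pairs. It lies at chr20:36045622-36050960 on the minus strand of GRCh38 as a single exon. It was at 58.7, 41.1 and 47.0 TPM after knockdown and at 55.5, 52.4 and 59.8 TPM in the controls. The groups overlapped because of knockdown replicate 1, as for MALAT1, and the other 2 knockdown libraries lay below every control. For NORAD the log2 fold change was -0.20 (95% interval -0.53 to 0.13, limma adjusted p = 0.382 unblocked and 0.159 blocked; exact two-sided permutation test of the means, p = 0.3). Without knockdown replicate 1 limma gave -0.34 (adjusted p = 0.0476), and without pair 1 the blocked fit gave -0.34 (limma adjusted p = 0.00687). Its GC content is 41.6%, and removal of the GC trend turned the sign to 0.17 (limma adjusted p = 0.308 unblocked and 0.0844 blocked).

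NEAT1, 52148 bases from MALAT1 on the same strand (chr11:65422774-65445540, plus strand, GRCh38), is the RNA on which paraspeckles assemble. It was at 17.9, 12.3 and 18.6 TPM after knockdown and at 26.0, 16.1 and 18.1 TPM in the controls. The groups overlapped, and 2 of 3 pairs were lower after knockdown while pair 3 was at 103% of the control. NEAT1 had a log2 fold change of -0.28 (95% interval -0.81 to 0.25, limma adjusted p = 0.452 unblocked and 0.116 blocked; exact two-sided permutation test, p = 0.5). It was -0.36 (limma adjusted p = 0.319) when knockdown replicate 1 was left out. FRMD8, the coding gene next to NEAT1, had a log2 fold change of 0.28 (limma adjusted p = 0.154 unblocked and 0.0143 blocked), which was 0.13 (limma adjusted p = 0.165) with the GC trend removed and the block and 0.33 (limma adjusted p = 0.0728) without knockdown replicate 1.

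PVT1, DANCR and CYTOR had the smallest log2 fold changes of the 8, between -0.13 and -0.08. PVT1, which shares its chromosome region with the oncogene MYC and is often gained with it in tumours, was at 72.8, 82.8 and 85.9 TPM after knockdown and at 76.5, 94.2 and 94.5 TPM in the controls. It was lower by a small amount in each pair, at 95.2%, 87.9% and 90.9% of the control, and the groups overlapped. This gave a log2 fold change of -0.13 (95% interval -0.40 to 0.14, limma adjusted p = 0.485 unblocked and 0.0776 blocked). With the block and without pair 1 it was -0.16 (limma adjusted p = 0.0377), and without knockdown replicate 1 alone, unblocked, -0.06 (limma adjusted p = 0.712). MYC itself, at 136 TPM after knockdown and 145 TPM in the controls, had -0.09 (limma adjusted p = 0.671).

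DANCR, which represses differentiation in several cell types, lies at chr4:52712404-52720351 (plus strand, GRCh38). It was at 66.6, 57.0 and 57.4 TPM after knockdown and at 75.2, 58.9 and 57.9 TPM in the controls, and replicate 1 was the highest library in both groups. DANCR had a log2 fold change of -0.08 (95% interval -0.37 to 0.22, limma adjusted p = 0.721 unblocked and 0.296 blocked; exact two-sided permutation test, p = 0.5). Leaving out knockdown replicate 1 gave -0.15 (limma adjusted p = 0.410). The groups overlapped, and the interval leaves room for a change of either sign. USP46, a deubiquitinase and the nearest gene on one side, had -0.35 (limma adjusted p = 0.271).

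CYTOR, a cytoskeleton regulator RNA on chromosome 2 (chr2:87454781-87636740, plus strand, GRCh38), was at 33.6, 32.5 and 24.6 TPM after knockdown and at 39.0, 26.2 and 32.4 TPM in the controls. The groups overlapped and the pairs went both ways, at 86.2%, 124% and 76.1% of the control. Its log2 fold change was -0.10 (95% interval -0.52 to 0.33, limma adjusted p = 0.758 unblocked and 0.603 blocked; exact two-sided permutation test, p = 0.7). It was -0.18 (limma adjusted p = 0.522) without knockdown replicate 1. CYTOR has a near-identical copy, MIR4435-2HG, and the split of reads between the copies is uncertain. MIR4435-2HG had -0.32 (limma adjusted p = 0.192 unblocked and 0.0246 blocked), and the blocked call was lost with the GC trend removed (-0.16, limma adjusted p = 0.119).

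Without knockdown replicate 1, limma called 1 of the 8 lncRNAs higher (H19) and 3 lower (MALAT1, TUG1 and NORAD), where 4.61% and 19.8% of all genes tested were called. With the block and without both libraries numbered 1, it called 1 higher (H19) and 4 lower (MALAT1, TUG1, NORAD and PVT1), where 11.8% and 28.6% of all genes were. After removal of the GC trend and with the block, the calls were 1 higher (H19) and 1 lower (TUG1), where 13.5% and 12.6% of all genes were called.

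The proteins that bind these RNAs were examined as lists chosen with earlier results of these data known. Their counts stand beside 25.0% of all genes called lower with the block and 26.1% at an unadjusted p under 0.05 in either direction. With the GC trend removed and the block, 12.6% of all genes were called lower and 13.5% higher. For NORAD, the Pumilio repressor PUM2 was at 5.29, 3.35 and 4.46 TPM after knockdown and 7.90, 6.57 and 7.38 TPM in the controls, with no overlap of the groups and a log2 fold change of -0.64 (limma adjusted p = 0.0888 unblocked and 0.00950 blocked). KHDRBS1, which encodes the RNA-binding protein SAM68, had -0.15 (limma adjusted p = 0.168 unblocked and 0.0499 blocked). With the GC trend removed and the block, PUM2 (-0.32, limma adjusted p = 0.0381) was called lower and KHDRBS1 (-0.01) was not. PUM2 was at -0.76 (limma adjusted p = 0.0208) and KHDRBS1 at -0.15 (limma adjusted p = 0.132) without knockdown replicate 1 and without the block.

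For MALAT1, 8 nuclear speckle proteins were listed, and all 8 had log2 fold changes below 0, with a median of -0.41. Limma called 0 of 8 without the block (4 at an unadjusted p under 0.05) and 8 of 8 lower with it. PNN, a speckle and desmosome protein, had the largest difference, -1.01 (limma adjusted p = 0.166 unblocked and 0.00436 blocked). SON, the core scaffold of speckles, had -0.51 (limma adjusted p = 0.0849 unblocked and 0.00481 blocked), and the splicing factor SRSF3 had -0.48 (limma adjusted p = 0.128 unblocked and 0.00780 blocked). With the GC trend removed and the block, 6 of 8 were called lower, where 12.6% of all genes were, and the median was -0.26.

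For NEAT1, 14 paraspeckle proteins were tested, with a median of -0.18. Limma called 0 of 14 without the block (6 at an unadjusted p under 0.05) and 7 lower and 0 higher with it. CPSF6, a subunit of the complex that sets poly(A) site choice, had -0.57 (limma adjusted p = 0.0536 unblocked and 0.00458 blocked), HNRNPH3 had -0.54 (limma adjusted p = 0.133 unblocked and 0.00481 blocked) and TARDBP, which encodes the RNA-binding protein TDP-43, had -0.48 (limma adjusted p = 0.179 unblocked and 0.00594 blocked). NONO, a core paraspeckle protein, had -0.01 (limma adjusted p = 0.898), and its partner SFPQ had -0.45 (limma adjusted p = 0.0695 unblocked and 0.00675 blocked). With the GC trend removed and the block, 2 of 14 were called lower (CPSF6 and HNRNPH3) and 1 higher, HNRNPK, whose sign turned from -0.13 to 0.24. The shares of all genes called in that fit were 12.6% lower and 13.5% higher.

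Proteins with several lncRNA partners gave the same kind of counts. Of the 3 IGF2BP proteins, which stabilise mRNAs and bind H19 and HULC, 0 were called without the block (2 at an unadjusted p under 0.05) and 2 were called lower with it, IGF2BP2 (-0.37, limma adjusted p = 0.00876) and IGF2BP3 (-0.55, limma adjusted p = 0.0111), while IGF2BP1 had -0.06. Of 4 subunits of PRC2, the histone H3 lysine 27 methyltransferase complex, 0 were called without the block (1 at an unadjusted p under 0.05) and 3 were called lower with it. These were the catalytic subunit EZH2 (-0.59, limma adjusted p = 0.00511), SUZ12 (-0.62, limma adjusted p = 0.00719) and RBBP4 (-0.33, limma adjusted p = 0.0231). With the GC trend removed and the block, EZH2 alone of these was called lower (-0.31), and EED was called higher (0.44). Without knockdown replicate 1 and without the block, 4 of 8 speckle proteins, 5 of 14 paraspeckle proteins, 2 of 3 IGF2BP proteins and 2 of 4 PRC2 subunits were called lower, beside 19.8% of all genes. Of the genes named in these lists, PNN, SON, SRSF3, CPSF6, HNRNPH3, TARDBP, SFPQ, IGF2BP2, IGF2BP3, EZH2 and SUZ12 were among those called, with limma adjusted p from 0.0125 (IGF2BP3) to 0.0424 (EZH2). RBBP4 was not called there (-0.40, limma adjusted p = 0.0619).

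**Figure D5:**
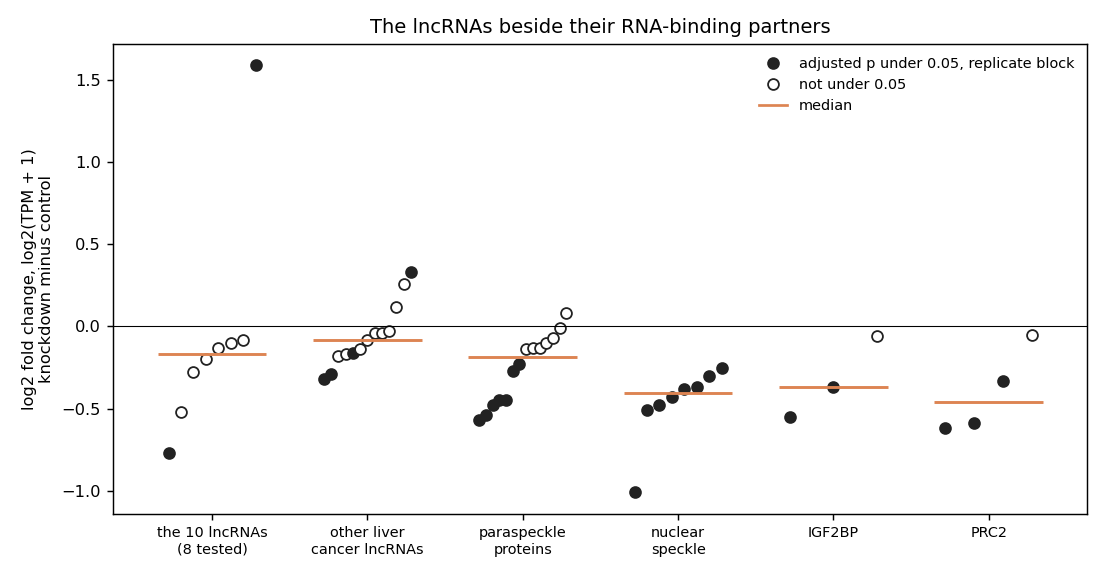
Log2 fold change on log2(TPM + 1), knockdown minus control, with 1 point per gene tested, for the lncRNAs and 5 lists chosen with earlier results known. Filled points had an adjusted p under 0.05 with the replicate block, and orange lines are list medians. H19 stands above all points at 1.59, and the 8 nuclear speckle proteins all lie below 0.

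Of 25 other lncRNAs studied in liver cancer, 13 passed the filter, and their median log2 fold change was -0.08, equal to that of all genes. Limma called 0 of 13 without the block, where 0.25% of all genes were called higher and 0.629% lower. At an unadjusted p under 0.05 there was 1 of 13, against 26.1% of all genes. With the block, limma called 1 higher and 3 lower, where 9.94% and 25.0% of all genes were. LINC00673 rose in that fit, at 74.0, 90.3 and 90.9 TPM after knockdown and 67.6, 66.5 and 67.0 TPM in the controls (log2 fold change 0.33, limma adjusted p = 0.0227). Those lower were MIR4435-2HG, SNHG1 (-0.29, limma adjusted p = 0.00962) and GAS5 (-0.16, limma adjusted p = 0.0450), the latter 2 being hosts of small nucleolar RNAs. With the GC trend removed and the block, 12 of these lncRNAs could be tested. Of these, 2 were called higher and 0 lower, where 13.5% and 12.6% of all genes were. Those higher were GAS5, whose sign turned to 0.18 (limma adjusted p = 0.0231), and TP53TG1 (0.26, limma adjusted p = 0.0446), while SNHG1 was at -0.00 (limma adjusted p = 0.971) and MIR4435-2HG at -0.16 (limma adjusted p = 0.119). LINC00673 had no GC value. In the unblocked fit without knockdown replicate 1, 1 of 13 was called higher and 0 lower, where 4.61% and 19.8% of all genes were. The 1 called was LINC00673 (0.43, limma adjusted p = 0.0141). SNHG1 was at -0.43 (limma adjusted p = 0.0821), MIR4435-2HG at -0.41 (limma adjusted p = 0.0659) and GAS5 at 0.06 (limma adjusted p = 0.871). HOTAIR, an lncRNA that recruits PRC2, was at a mean of 2.88 TPM after knockdown and 2.94 TPM in the controls.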

How the data were processed

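Total RNA from HCCLM3-SR cells was made into libraries with a NEBNext Ultra kit and sequenced as polyadenylated RNA. The authors deposited TPM values per gene (reads per gene length, each library summing to 1000000), and the submitters' processing notes name fastp 0.20.1, HISAT2 2.1.0, StringTie 2.0 and the hg38 build. The annotation and the strand setting are not given in the sources used here.

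Whole reads were recovered from the TPM ratios between libraries: within 0.02 of a read, all of the 17285 genes above 0 in all 6 libraries (100%) came out whole, against 0% of the 14510 of them with under 2000 reads once the library factors were moved. Totals were 17492673 to 23064302 reads, which are lower bounds, and limits from them cover counting error only.

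The lncRNAs and gene lists were chosen with earlier results of these data known, and the list of RNAs without a poly(A) tail was chosen after seeing the data. Groups came from the sample labels. Limma 3.58.1 (R 4.3.3) with a mean-variance trend was fitted to log2(TPM + 1) of 13980 genes that averaged 1 TPM or more, and p-values were adjusted by Benjamini-Hochberg over all of them. Mean levels were compared by exact permutation tests, 10 in all, 1 per lncRNA. The titles number the libraries without saying what the numbers stand for, so the pairing is an assumption. Deviations from the group means correlated at 0.56, 0.343 and 0.362 in same-numbered pairs. Knockdown replicate 2 with control replicate 3 had 0.215, and knockdown replicate 3 with control replicate 2 had 0.247. The remaining different-numbered correlations lay between -0.45 and -0.376. The fit with this replicate block is given beside results whose call it changes. The fits were tested on simulated data that held no replicate effect, no GC trend and no library that stood apart. Without the block 99.0% of the changed genes were recovered and 5.34% of calls were false. With the block these were 98.5% and 7.62%. The simulation therefore does not show how the blocked fit behaves where same-numbered libraries vary together. GC content came from GENCODE 29 transcripts, which matched 90.8% of the tested genes, and its trend was removed by lowess with a span of 0.5. Sequences came from GENCODE 29 for 9 of the 10 lncRNAs and from RefSeq for microRNAs.

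Alternatives were a pseudocount of 0.1, a filter at 5 TPM or none, upper-quartile scaling, GC and length offsets, no trend, leaving out each library, and limma-voom on recovered reads, for genes that reached 10 reads in 3 libraries. The last, and the block without pair 1, were chosen after seeing the data. The text names all 10 lncRNAs, the called genes of each list or else the 3 with the largest change, genes called with the block where named as such, the nearest neighbours that were tested, DCBLD2 and the genes most alike. NONO, SFPQ, HNRNPK, EED, HOTAIR, MRPL23, MIR675 and TALAM1 were named after their values were seen. Results for some further genes are not reported here. Scripts ran in Python 3.11.15 with numpy 2.4.6, pandas 2.3.3 and matplotlib 3.10.9.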

Additional observations from a re-analysis of the deposited data

How the results depend on the processing

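Among the 8 lncRNAs tested, limma without the block called 0 higher and 0 lower. The replicate block, the GC-content offset with the block and limma-voom with the block each called 1 higher and 1 lower, and the block without pair 1 called 1 higher and 4 lower. With each library left out, 0 to 1 were called higher and 0 to 3 lower, and calls came only without knockdown replicate 1. Over the 8 lncRNAs, the block changed no call but those of H19 and TUG1. H19, TUG1, MALAT1 and PVT1 kept their direction under all 18 alternatives. Limma adjusted p ran from 4.05e-06 to 0.443 for H19 and from 0.00126 to 0.305 for TUG1. For MALAT1 it ran from 0.00878 to 0.939, and for PVT1 from 0.0377 to 0.892.

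Over all genes, 35 were higher and 88 lower without the block. The replicate block gave 1390 and 3501, no filter on low values 3 and 1 (4160 at an unadjusted p under 0.05), a filter at 5 TPM 83 and 238, and upper-quartile scaling 59 and 62. The GC-content offset gave 22 and 11, and with the replicate block 1707 and 1598. The length offset gave 89 and 48, no mean-variance trend 0 and 1 (3623 at an unadjusted p under 0.05), limma-voom 193 and 259, limma-voom with the block 2627 and 3081, and the block without pair 1 1643 and 3982. With each library left out, 0 to 643 genes were higher and 0 to 2767 lower. Counts above 0 came only without knockdown replicate 1, and in the other 5 fits 2156 to 2796 passed an unadjusted p of 0.05. The cause of these shifts was not tested.

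Signs of uncalled log2 fold changes turned as follows. NEAT1 was at 0.076 with the length offset. DANCR was at 0.022 with limma-voom and 0.020 with limma-voom and the block, and ranged from -0.149 to 0.042 with each library left out. CYTOR was at 0.035 with the GC-content offset, without and with the replicate block, at 0.004 with limma-voom and 0.003 with limma-voom and the block, and ranged from -0.239 to 0.040 with each library left out. NORAD was at 0.171 with the GC-content offset, without and with the replicate block.

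Some limits bear on all values. TPM carries no depth, so recovered totals are lower bounds. With 3 libraries a group, the exact test cannot go below 0.1. Strand and multimapping settings are not given in the sources used here, so MALAT1 and CYTOR are uncertain in their share of overlapping or copied sequence.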

Other observations

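Among the 1530 lncRNA genes tested, limma without the replicate block called 1 higher and 0 lower, where 0.25% and 0.629% of all genes were. With the block it called 69 higher and 142 lower, where 9.94% and 25.0% of all genes were. The 1 called without the block was LINC02747, named after its values were seen. It was at 36.2, 30.3 and 34.4 TPM after knockdown and at 20.4, 17.3 and 16.9 TPM in the controls, a log2 fold change of 0.85 (limma adjusted p = 0.0444 without the block and 0.00436 with it). The only tested lncRNA with a higher log2 fold change than H19 was LOC105374985, at 11.2, 27.8 and 61.0 TPM after knockdown and at 1.39, 10.7 and 21.3 TPM in the controls, with 1.71 (limma adjusted p = 0.282 without the block and 0.00635 with it). Like H19, it was lowest in replicate 1 and highest in replicate 3 of both groups.

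The genes most like each lncRNA were those with the highest Pearson r of log2(TPM + 1) over the 6 libraries, which share groups and replicate numbers, and r is given as a description. For H19 they were FAM83G (0.9984) and FGF11 (0.9977), for TUG1 APPL1 (0.999) and PGM3 (0.9986), and for NORAD GAB1 (0.9929) and C6orf141 (0.989). MALAT1 followed TALAM1 (0.9999) and GASK1B-AS1 (0.9984), PVT1 followed SETDB1 (0.9996) and GLDN (0.9966), and DANCR followed CCDC12 (0.9983) and PRPF19 (0.9976). NEAT1 followed NR2C2AP (0.9819) and BRD9 (0.9777), and CYTOR followed LINC02155 (0.9644) and SNORA63 (0.9616). Over these 6 libraries, the number of genes with r above 0.95 ranged from 8 for CYTOR and 13 for NEAT1 to 471 for H19 and 1212 for TUG1. Between the lncRNAs themselves, r was 0.96 for MALAT1 and NORAD, 0.91 for TUG1 and NORAD, and -0.83 for H19 and TUG1.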
